A study of Mus musculus with 17 samples.

Results

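Genes of fatty acid oxidation and ketogenesis were followed in liver of Afp knockout mice, with RNA of each mutant liver and RNA pooled from wild-type livers hybridised together on 2-colour cDNA arrays. The genes were chosen by symbol from a list of 54, of which 38 had a probe on the array (56 of its 20794 probes, and 38 of its 9030 named genes). No probe carried the symbol of the other 16, which were Cpt1a, Hadhb, Acot1, Slc25a20, Eci1, Ucp2, Vnn1, Decr2, Crot, Pdk4, Ehhadh, Acsl1, Acot2, Cyp4a10, Fgf21 and Cd36. Of the 38 genes, 27 had 1 probe, 7 had 2 and the remaining 4 had 3 to 5. A gene was given as the mean of its probes.

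The adult group held 6 male Afp mutant mice aged 17 weeks, on 11 arrays, against a pool of 6 wild-type males of the same age. In 5 of these animals both dye orientations were measured, and animal 5 was measured only with the mutant RNA in Cy5. The fetal group held 6 Afp mutant embryos, 3 female and 3 male, on 6 arrays with the mutant always in Cy5, against a pool named from 4 wild-type animals. The labels name the tissue fetal liver and the stage embryonic day 7.5, which is kept here as a label only. They call the fetal pool female on 4 arrays and male on 2, while naming the same 4 pool animals on each, and do not describe the mutant allele or the strain. Because each pool stood in for all wild-type animals, no test below includes the spread among wild-type animals. Ratios carry no level, so the tissue label could not be checked against the presence of its markers.

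Fatty acids enter the hepatocyte through transport proteins, are bound by a small cytosolic carrier and are activated to acyl-CoA esters. Long chains cross into mitochondria as carnitine esters and are shortened by repeated rounds of dehydrogenation, hydration, oxidation and thiolysis, with electrons passed on through the electron transfer flavoproteins. Peroxisomes shorten very long and branched chains, microsomal Cyp4a enzymes oxidise the omega end, and surplus acetyl-CoA leaves the liver as ketone bodies. The nuclear receptor PPARalpha, active in fasting, switches on many of these genes together. In rodents the pathway matures in liver around birth, when milk fat becomes the main fuel.

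Values are log2 ratios, mutant divided by pool, and errors are SDs between animals unless stated otherwise. Each array carried 20078 to 20697 values, with array medians of -0.11 to 0.09 in the adults and -0.02 to 0.03 in the embryos. Afp, the targeted gene, averaged -8.40 ± 0.23 in the embryos (n = 6, adjusted p = 1.25e-08, limma) and -0.03 ± 0.19 in the adults (n = 6, adjusted p = 0.944, limma). The adult Afp value therefore does not check the genotype labels of the adults. A positive value most likely means higher in the mutant: the fetal Afp value sets the sign on arrays with the mutant in Cy5, and adult columns with mutant RNA in Cy3 were read as having been turned by the authors to the same direction. Fetal values were named after a move of 11 rows in the deposited table, a shift inferred from the values. A gene was called changed at a Benjamini-Hochberg adjusted p under 0.05, adjusted over all features tested.

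None of the 38 genes passed in adult liver, where 0 of 17039 features passed in either direction (0.0% higher and 0.0% lower). The limma test gave 1321 features an unadjusted p under 0.05. Most of the pathway's means lay below 0 all the same: 25 of 38 (65.8%), beside 48.2% of all features, and 13 lay above 0 (34.2%, beside 51.8%). The median gene stood at -0.11, against 0.0081 over all features. At an unadjusted p under 0.05, 6 genes were lower (15.8%, beside 4.37% of all features), namely Slc27a2, Fabp1, Acadl, Hadh, Acaa1a and Cat. Slc27a5 and Acsm3 were higher at that level (5.26%, beside 3.38%). Every animal lay below 0 for Acadm alone (2.63% of genes, beside 2.81% of features) and above 0 for Acot3 alone (2.63%, beside 3.46%), both close to the shares of all features.

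**Figure D1:**
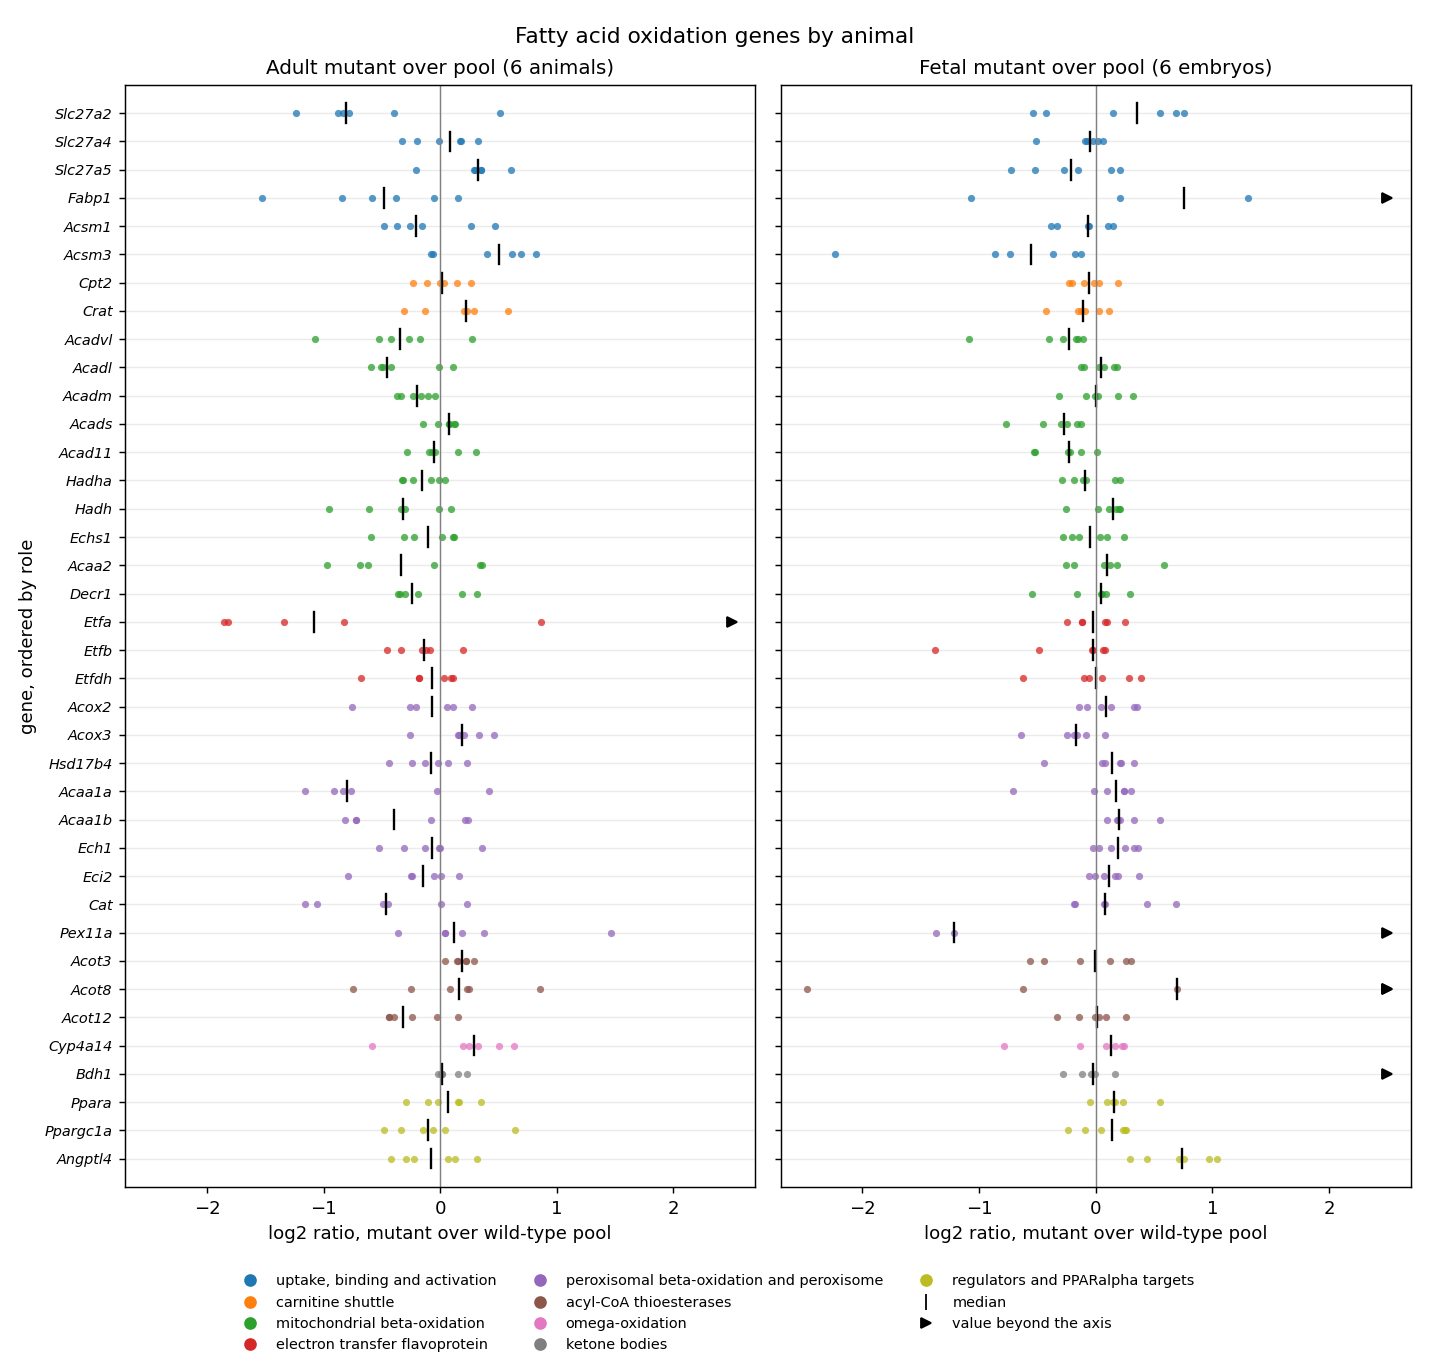
Log2 ratio of mutant over wild-type pool (horizontal axis) for each of the 38 genes (vertical axis, ordered and coloured by role) in 6 adult animals (left) and 6 embryos (right). Points are animals, black bars are medians, and black triangles are values beyond the axis limit of 2.5. In the adults Slc27a2, Acaa1a and Etfa have medians well below 0 with 1 or 2 animals above it, while in the embryos all 6 points of Angptl4 lie to the right of 0.

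Among the genes of uptake, binding and activation, 3 of 6 adult means lay below 0 and 3 above. Slc27a2, a fatty acid transport protein that also activates very long chains, measured -0.39 to -1.24 in adult animals 2 to 6 and 0.52 in animal 1, with a median of -0.81. Its mean was -0.60 ± 0.61 (n = 6, adjusted p = 0.639, limma), and animal 1 was the only one above 0. Fabp1, the abundant cytosolic fatty acid carrier of hepatocytes, spanned -1.52 to 0.15 with a median of -0.48. It averaged -0.54 ± 0.60 (n = 6, adjusted p = 0.639, limma), with 5 of 6 animals below 0, and -0.34 without animal 4. Acsm3, a mitochondrial acyl-CoA synthetase for medium chains, went the other way. Its values were -0.06 and -0.08 in animals 1 and 2 and 0.40 to 0.82 in the other 4, a mean of 0.40 ± 0.39 (n = 6, adjusted p = 0.639, limma). Slc27a5, which activates bile acids as well as very long fatty acids, lay at 0.29 to 0.61 in 5 animals and at -0.21 in animal 5, with a mean of 0.28 ± 0.27 (n = 6, adjusted p = 0.641, limma). Slc27a4 and Acsm1 averaged 0.02 ± 0.25 and -0.09 ± 0.37, with animals on both sides of 0.

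The carnitine shuttle was represented by Cpt2, the inner membrane carnitine palmitoyltransferase, at 0.02 ± 0.18, and by Crat, the acetyltransferase, at 0.14 ± 0.32. Neither stood apart from its spread.

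Mitochondrial beta-oxidation lay mostly on one side in the adults, with 9 of 10 means below 0 and a median of -0.18. Acadvl, Acadl, Acadm and Acads open the spiral for very long, long, medium and short chains. Acadvl spanned -1.07 to 0.27 with a median of -0.34 and averaged -0.36 ± 0.44 (n = 6, adjusted p = 0.643, limma), with only animal 1 above 0, and -0.22 without animal 3. Acadl averaged -0.32 ± 0.29, with values of -0.42 to -0.59 in animals 3 to 6 and -0.0075 and 0.11 in animals 1 and 2. Acadm, the medium chain enzyme, lay below 0 in all 6 animals, between -0.37 and -0.04, with a mean of -0.21 ± 0.13 (n = 6, adjusted p = 0.641, limma). Its 2 probes did not share that position, at -0.45 and 0.03. Acads was the single mean above 0, at 0.04 ± 0.10.

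Means over both dyes for the later steps of the spiral lay below 0 as well. Hadha, the alpha subunit of the trifunctional protein, ranged from -0.33 to 0.04 with a median of -0.16 and averaged -0.16 ± 0.16 (n = 6, adjusted p = 0.678, limma). Hadh, the dehydrogenase for shorter hydroxyacyl chains, averaged -0.35 ± 0.39, with animal 1 alone above 0. Acaa2, the mitochondrial thiolase that closes each round, averaged -0.27 ± 0.57. Echs1 and Decr1 averaged -0.15 ± 0.28 and -0.11 ± 0.29, and Acad11, a further acyl-CoA dehydrogenase, averaged -0.0044 ± 0.21. Hadh and Decr1 had means below 0 on both dye orientations. Hadha, Echs1, Acaa2 and Acad11 had opposite signs on the 2 orientations. All 3 electron transfer flavoprotein genes had means below 0, but Etfa was the most scattered gene of the list, at -1.34 to -1.85 in animals 3, 4 and 6, -0.82 in animal 1, 0.86 in animal 2 and 2.81 in animal 5. The value of animal 5 is from Cy5 alone, and the Cy5 arrays of animals 1, 2 and 4 read -1.03, 1.76 and -1.24 for Etfa. Animals 3 and 6 had no Cy5 value for Etfa, so theirs are from Cy3 alone. The Cy3 arrays all read below 0, from -2.41 in animal 4 to -0.03 in animal 2. The part of the dye in this scatter was not tested. The Etfa mean of -0.36 ± 1.85 is therefore no measure of a common position. Etfb and Etfdh averaged -0.16 ± 0.22 and -0.13 ± 0.30.

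In the peroxisome 7 of 9 adult means lay below 0, with a median of -0.13. Acaa1a, a peroxisomal thiolase, measured -0.77 to -1.16 in animals 3 to 6, -0.03 in animal 2 and 0.42 in animal 1. It averaged -0.55 ± 0.61 (n = 6, adjusted p = 0.639, limma), and its median of -0.80 was close to that of Slc27a2. Acaa1b, a closely similar thiolase, averaged -0.31 ± 0.49, and whether the probes tell the pair apart was not tested. Cat, the catalase that removes the hydrogen peroxide formed by the acyl-CoA oxidases, averaged -0.49 ± 0.55, with -1.16 and -1.06 in animals 4 and 6 as its lowest values. The oxidases themselves did not share a side, with Acox2 at -0.13 ± 0.37 and Acox3 at 0.18 ± 0.25. Hsd17b4, which hydrates and oxidises the chain, averaged -0.09 ± 0.23, and the isomerases Ech1 and Eci2 averaged -0.10 ± 0.30 and -0.19 ± 0.33. Pex11a, which acts in peroxisome division, had a mean of 0.29 ± 0.62 (n = 6, adjusted p = 0.717, limma) that came largely from 1.47 in animal 1, the other 5 lying between -0.36 and 0.38 and averaging 0.057.

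Acot3, a peroxisomal acyl-CoA thioesterase, lay between 0.04 and 0.29 in all 6 animals, with a mean of 0.18 ± 0.09. Those are means over arrays and probes. Single arrays lay below 0 in animals 1 and 6 on Cy5 (-0.34 and -0.18) and in animal 3 on Cy3 (-0.05). Its 2 probes lay below 0 in animal 5 (-0.10) and in animal 6 (-0.13), respectively. Acot12, the cytosolic acetyl-CoA thioesterase, averaged -0.23 ± 0.24, and Acot8 averaged 0.07 ± 0.54. Cyp4a14, an omega-hydroxylase and a sensitive PPARalpha target, lay at 0.20 to 0.63 in animals 1 to 5 and at -0.58 in animal 6, a mean of 0.22 ± 0.43 (n = 6, adjusted p = 0.708, limma). Bdh1, the dehydrogenase that makes beta-hydroxybutyrate, spanned -0.02 to 0.23 with a median of 0.02 and averaged 0.07 ± 0.10 (n = 6, adjusted p = 0.817, limma). Bdh1 averaged 0.32 ± 0.23 on Cy5 arrays and -0.23 ± 0.07 on Cy3 arrays, so its mean lay between readings of opposite sign. It was the only gene of ketone body synthesis in the list. Ppara itself spanned -0.29 to 0.35 and averaged 0.04 ± 0.23 (n = 6, adjusted p = 0.912, limma), while its coactivator Ppargc1a spanned -0.49 to 0.64 and averaged -0.06 ± 0.39 (n = 6, adjusted p = 0.912, limma). Ppara also had opposite signs by dye, at 0.30 ± 0.21 on Cy5 arrays and -0.29 ± 0.44 on Cy3 arrays. Angptl4, a secreted inhibitor of lipoprotein lipase and a PPAR target, averaged -0.07 ± 0.28.

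The adult animals differed from each other in the position of the whole list. The median over the 38 genes was 0.14 in animal 1 and 0.03 in animal 2, and -0.29, -0.24, -0.15 and -0.15 in animals 3, 4, 5 and 6. Animal 1 had 26 of 38 genes above 0, while animal 3 had 28 of 38 below 0. Hepatocyte markers were lower in the same 4 animals as well: 9 of 9 measured of 11 listed had means below 0, with a median of -0.36, and their median was 0.20 in animal 1, -0.12 in animal 2, and -0.73, -0.79, -0.24 and -0.74 in animals 3 to 6. Endothelial markers lay below 0 in 5 of 5 measured of 7 listed, with a median of -0.53 and animal medians of -0.76 to -0.09. That median is the mean of Tek, at -0.53 ± 1.44. The others averaged -0.87 ± 1.87 for Kdr, -0.67 ± 0.30 for Cdh5, -0.17 ± 0.12 for Pecam1 and -0.13 ± 0.31 for Eng. Kupffer cell and macrophage markers lay above 0 in 3 of 3, with a median of 0.24 and animal medians of 0.08 to 0.38, above 0 in all 6 animals. Erythroid markers lay below 0 in 3 of 4 (median -0.16). The other lists had medians of 0.13 for adipocyte, 0.09 for cholangiocyte, -0.0015 for striated muscle and -0.07 for acinar pancreas markers. The part of these cell types in the result was not tested. In whole liver, fewer hepatocytes and less RNA per hepatocyte cannot be told apart.

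**Figure D2:**
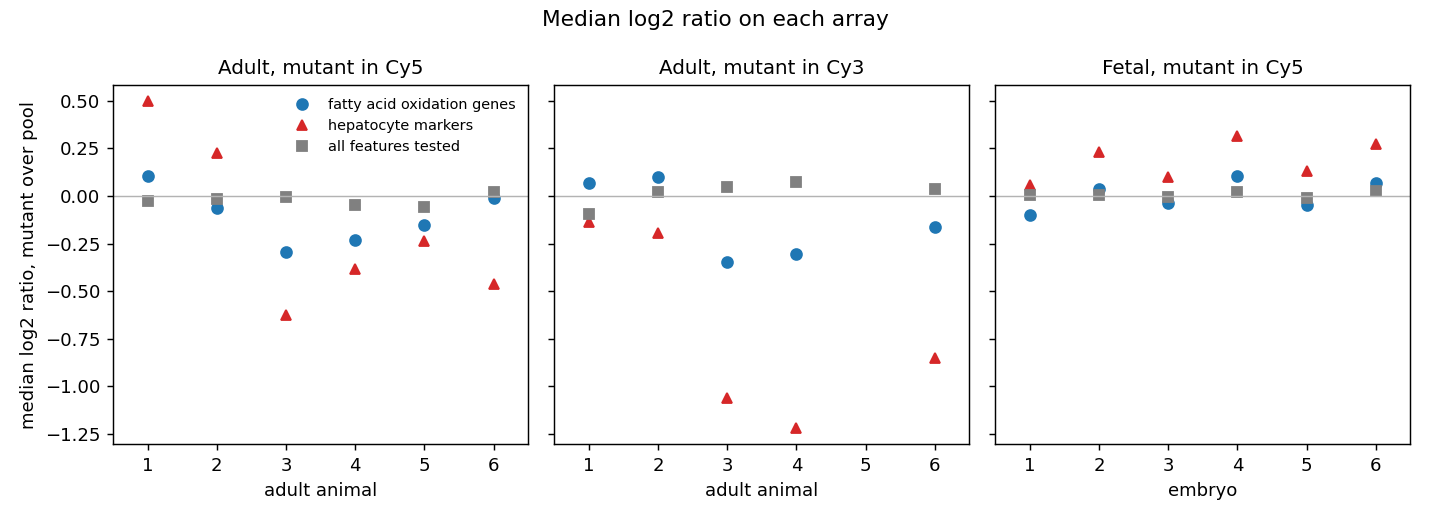
Median log2 ratio on each array (vertical axis) over the fatty acid oxidation genes (circles), the hepatocyte markers (triangles) and all features tested (squares), for adult arrays with the mutant in Cy5, adult arrays with the mutant in Cy3 and fetal arrays, with the animal or embryo number on the horizontal axis. In adult animals 3 and 4 the list lies between -0.23 and -0.35 on both orientations, and the markers lie lower still, while the medians of all features lie between -0.10 and 0.08 on all arrays drawn.

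The dye orientations placed many genes on opposite sides. Means of the Cy5 arrays and of the Cy3 arrays were both below 0 in 14 of 38 genes (36.8%, beside 14.9% of all features) and both above 0 in 6 (15.8%, beside 15.6%). They had opposite signs in 18 (47.4%, beside 69.5%). The genes below 0 on both were Slc27a2, Fabp1, Acsm1, Acadvl, Acadl, Acadm, Hadh, Decr1, Etfb, Acaa1a, Acaa1b, Cat, Acot12 and Ppargc1a. Slc27a2 averaged -0.64 ± 0.76 on Cy5 arrays and -0.43 ± 0.47 on Cy3 arrays, and Fabp1 averaged -0.58 ± 0.75 and -0.48 ± 0.60 on the same arrays. Acaa1a averaged -0.38 ± 0.75 on Cy5 arrays and -0.70 ± 0.62 on Cy3 arrays, and Cat averaged -0.44 ± 0.43 and -0.55 ± 0.78. With the Cy3 columns read as already turned, these 4 genes lay on the same side in both orientations, with SDs close to the size of the means or above it. The side depends on that reading: with the Cy3 arrays turned, the adult means were -0.24 for Slc27a2, -0.14 for Fabp1 and 0.039 for Acaa1a. Acaa2, in contrast, averaged 0.22 ± 0.36 on Cy5 arrays and -0.99 ± 0.67 on Cy3 arrays, and Angptl4 averaged 0.33 ± 0.30 and -0.60 ± 0.46. Both had opposite signs on the 2 orientations. With the Cy3 arrays turned, Acaa2 averaged 0.55 and passed (adjusted p = 0.0112, limma), in a setting where 1764 of all features passed.

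**Figure D3:**
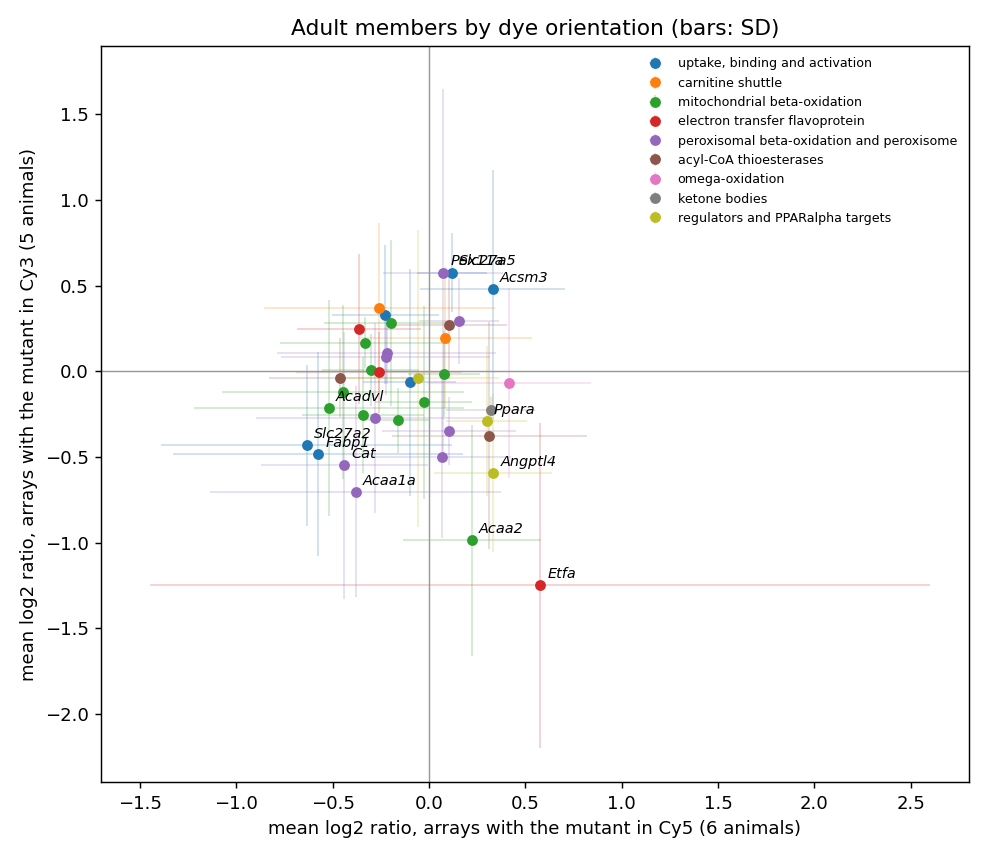
Mean log2 ratio of each gene on adult arrays with the mutant in Cy5 (horizontal axis) against that on arrays with the mutant in Cy3 (vertical axis), with bars giving the SD between animals and colours giving the role. The lower left holds the 14 genes below 0 on both, among them Slc27a2, Fabp1, Acaa1a and Cat, and the lower right holds Acaa2, Angptl4 and Etfa.

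Promoter sequence is shown for 4 genes of the list, chosen after their values were seen and because their windows hold the hexamer described here: Fabp1, Slc27a2 and Cat, which were lower in the adults at an unadjusted p under 0.05, and Acadvl, which had a mean below 0 at both ages. The windows of Acadl, Hadh and Acaa1a, the other genes lower at that level, held no match. PPARalpha binds with RXR to a direct repeat of the hexamer AGGTCA with 1 base between the copies. The hexamer, searched on both strands in windows of 300 bases around the RefSeq start (assembly GRCm38.p6), occurred in 9 of the 31 genes matched (29.0%), beside 18.1% of 27025 genes. The repeat AGGTCANAGGTCA occurred in 0 of 31, beside 0.0481% of genes. The looser form AGGNCANAGGNCA, whose matches can include those of the hexamer, occurred in 1 of 31, Fabp1, beside 0.451% of genes. A match is a description of the letters and says nothing of binding. In the stretches below, read 5′ to 3′ on the strand of the gene, capitals mark the hexamer or the looser repeat on either strand. They lie at chr6:71199789-71199878 for Fabp1 on the plus strand, chr2:126552774-126552833 for Slc27a2 on the plus strand, chr2:103485324-103485383 for Cat on the minus strand and chr11:70015479-70015538 for Acadvl on the minus strand.
Fabp1: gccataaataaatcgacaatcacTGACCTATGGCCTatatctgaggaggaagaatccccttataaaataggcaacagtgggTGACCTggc
Slc27a2: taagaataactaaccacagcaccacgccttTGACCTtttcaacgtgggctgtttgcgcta
Cat: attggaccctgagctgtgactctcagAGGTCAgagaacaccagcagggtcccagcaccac
Acadvl: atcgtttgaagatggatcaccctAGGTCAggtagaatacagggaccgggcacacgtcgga

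In fetal liver 37 of the 38 genes were tested, since Pex11a had only 3 values, and none passed, beside 0.058% of 17242 features that passed higher and 0.0928% that passed lower. Of the 37 means, 18 lay above 0 (48.6%, beside 51.0% of all features) and 19 below 0 (51.4%, beside 49.0%). The median was -0.0083, against 0.0046 over all features. Acaa1b, Ech1 and Angptl4 were higher at an unadjusted p under 0.05 (8.11%, beside 10.9%), and Acsm3, Acadvl, Acads and Acad11 were lower (10.8%, beside 9.88%). Every embryo lay above 0 for 2 of the 35 genes with 6 values (5.71%, beside 8.34%) and below 0 for 3 (8.57%, beside 7.5%). These shares were near those of all features. Hepatocyte markers stood at a median of 0.18 in the embryos, with 6 of 8 means above 0 and embryo medians of 0.06 to 0.32, and their part was not tested. Acinar pancreas markers fell: both measured, Cela2a and Cpa1, passed, with a median of -1.23 and embryo medians of -1.81 to -0.77. Erythroid markers lay below 0 in 4 of 4, with a median of -0.18 and embryo medians below 0 in 6 of 6. Cholangiocyte markers lay below 0 in 4 of 5 (median -0.36), and Kupffer cell and macrophage markers in 2 of 3 (median -0.13). The other lists had medians of 0.09 for endothelial, -0.02 for adipocyte and -0.10 for striated muscle markers. The part of these lists was not tested either.

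Angptl4 had the lowest adjusted p of the list in the embryos. Its log2 ratios were 0.30, 0.44, 0.72, 1.04, 0.76 and 0.97 in embryos 1 to 6. All 6 were above 0, with a mean of 0.71 ± 0.29 (n = 6, adjusted p = 0.0655, limma). It passed at an adjusted p of 0.0359 (limma) with all values of a size above 10 removed from the whole table. Over the other alternatives, which include the fetal rows named as deposited, its mean ran down to 0.067 and its adjusted p up to 0.698 (limma). All fetal arrays carried the mutant in Cy5. In the 5 adults measured both ways, the Cy5 arrays of Angptl4 lay 0.49 above the mean of both orientations, and subtracting that dye profile left 0.22 in the embryos (adjusted p = 0.166, limma).

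Among the activating enzymes, Acsm3 was below 0 in every embryo, at -0.37, -0.86, -0.73, -0.18, -0.12 and -2.23 in embryos 1 to 6. Its mean of -0.75 ± 0.78 (n = 6, adjusted p = 0.172, limma) leaned on embryo 6 and was -0.45 without it. Slc27a2 spanned -0.54 to 0.75 and Slc27a5 spanned -0.73 to 0.21, both across 0. Fabp1 had only 4 values, 1.31, 0.21, -1.06 and 17.1 in embryos 2 to 5. Values above 10 are far outside the other embryos' range, so no size is given for Fabp1.

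In the mitochondrial spiral 6 of 10 fetal means lay below 0, with a median of -0.04. Acadvl lay between -0.11 and -0.40 in 5 embryos and at -1.08 in embryo 1, a mean of -0.37 ± 0.37 (n = 6, adjusted p = 0.182, limma) that was -0.22 without embryo 1. Acads spanned -0.77 to -0.13 with a median of -0.27 and averaged -0.34 ± 0.24 (n = 6, adjusted p = 0.125, limma). Both were below 0 in 6 of 6 embryos. With the adult dye profile subtracted, Acadvl averaged -0.18 (adjusted p = 0.331, limma) and Acads -0.39 (adjusted p = 0.0207, limma). In that setting 4986 of all features passed. Acadm spanned -0.32 to 0.32 and averaged 0.02 ± 0.22 (n = 6, adjusted p = 0.909, limma), and Hadha spanned -0.29 to 0.21 and averaged -0.05 ± 0.20 (n = 6, adjusted p = 0.779, limma). Etfa, so scattered in the adults, stayed between -0.24 and 0.25 in the embryos.

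Peroxisomal genes leaned to the other side on these Cy5 arrays, with 7 of 8 fetal means above 0 and a median of 0.12. With the adult dye profile subtracted, they lay on both sides of 0. Acox2, Acaa1b, Ech1 and Cat then averaged 0.22, 0.22, 0.33 and 0.10. Hsd17b4, Acaa1a, Eci2 and Acox3 then averaged -0.15, -0.17, -0.19 and -0.23. The values that follow are without that subtraction. Acaa1b was above 0 in all 6 embryos, at 0.10 to 0.55 with a median of 0.20 and a mean of 0.26 ± 0.16 (n = 6, adjusted p = 0.131, limma). Ech1 averaged 0.18 ± 0.16 and Cat averaged 0.15 ± 0.35. Acox3 was the single mean below 0 before the subtraction, at -0.20 ± 0.24. Pex11a was measured in embryos 1, 4 and 6 alone, at -1.37, 16.5 and -1.21, and is given no mean.

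The other roles spread around 0 in the embryos. Cyp4a14 lay between -0.14 and 0.24 in 5 embryos and at -0.78 in embryo 6, a mean of -0.03 ± 0.39 (n = 6, adjusted p = 0.912, limma). Acot8 measured 16.8, -0.62, 16.5, 0.70 and -2.47 in embryos 1, 3, 4, 5 and 6, and has no interpretable size. Bdh1 lay between -0.28 and 0.17 in 5 embryos and at 4.04 in embryo 6, where 1 of its 4 probes read 16.1. Ppara averaged 0.19 ± 0.20 (n = 6, adjusted p = 0.261, limma), with 5 of 6 embryos above 0, and Ppargc1a averaged 0.08 ± 0.21 (n = 6, adjusted p = 0.656, limma). With the adult dye profile subtracted, Ppara averaged 0.04 (adjusted p = 0.735, limma) and Ppargc1a 0.07 (adjusted p = 0.557, limma).

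The 2 ages were set against each other on arrays with the mutant in Cy5, so that the dye was the same, while the pools differed. The adults were all male and the embryos 3 female and 3 male, and the part of sex in these differences was not tested. None of the 37 genes passed, beside 0.092% of 16309 features with a higher ratio in adults and 0.0491% with a lower one. The adult ratio was lower for 24 of 37 genes (64.9%, beside 52.3% of features) and higher for 13 (35.1%, beside 47.7%), with a median difference of -0.15, against -0.02 over all features. At an unadjusted p under 0.05 the ratio was lower in adults for 5 genes (13.5%, beside 9.19%), Slc27a2, Acadl, Acaa1b, Cat and Acot12, and higher for 3 (8.11%, beside 11%), Acsm3, Acads and Acox3. The hepatocyte markers were lower in adults in 8 of 8, with a median difference of -0.42, and their part was not tested.

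Acsm3 was the only gene whose ages did not overlap with adults higher (2.7% of genes, beside 1.12% of features), and 0 did so with adults lower (0.0%, beside 1.16%). The adults ranged from 0.09 to 1.06 with a median of 0.16, and the embryos from -2.23 to -0.12 with a median of -0.55. The means were 0.33 ± 0.37 in adults and -0.75 ± 0.78 in embryos, a difference of 1.08 (n = 6 each, adjusted p = 0.107, limma). Slc27a2 ranged from -1.30 to 0.71 in adults and from -0.54 to 0.75 in embryos, which overlapped. Its means were -0.64 ± 0.76 in adults and 0.20 ± 0.57 in embryos, a difference of -0.83 (n = 6 each, adjusted p = 0.208, limma). Without adult animal 1 the difference was -1.10 and passed (adjusted p = 0.0370, limma), against adjusted p-values of up to 0.736 over the other alternatives. In that leave-out 1251 of all features passed, instead of 23, and Slc27a2 was the only gene of the list among them.

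Smaller differences ran both ways by role. In the peroxisome 6 of 8 differences lay below 0, with a median of -0.37. Cat averaged -0.44 ± 0.43 in adults and 0.15 ± 0.35 in embryos (difference -0.59, n = 6 each, adjusted p = 0.163, limma), and Acaa1b averaged -0.28 ± 0.62 in adults and 0.26 ± 0.16 in embryos (difference -0.54, n = 6 each, adjusted p = 0.243, limma). Among the dehydrogenases, Acads averaged 0.08 ± 0.19 in adults and -0.34 ± 0.24 in embryos (difference 0.42, n = 6 each, adjusted p = 0.137, limma), and Acadl averaged -0.34 ± 0.32 in adults and 0.04 ± 0.13 in embryos. Cyp4a14 averaged 0.42 ± 0.43 in adults and -0.03 ± 0.39 in embryos (difference 0.45, n = 6 each, adjusted p = 0.294, limma). For Etfa, with 4 adult Cy5 values, the adult mean was 0.58 ± 2.02, and the difference of 0.58 was smaller than that spread (adjusted p = 0.672, limma). Fabp1 and Acot8 had the lowest fitted differences only through fetal values above 10, and are given none.

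**Figure D4:**
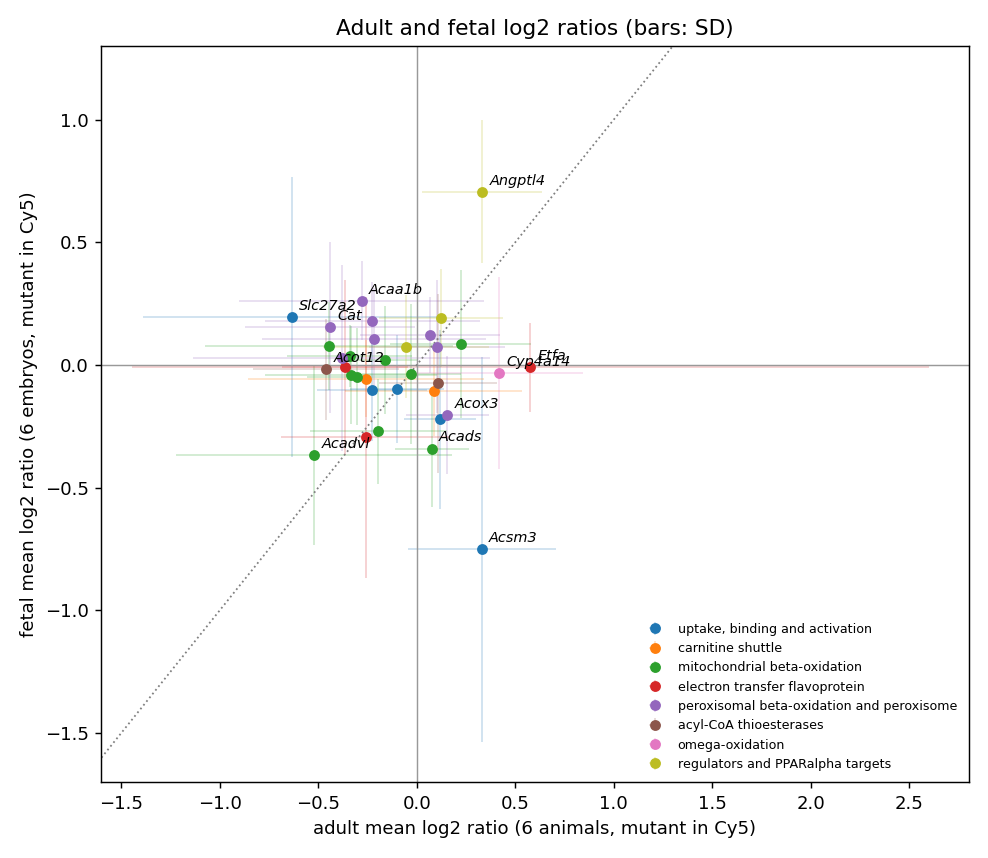
Mean log2 ratio of 34 genes in adult mutants on arrays with the mutant in Cy5 (horizontal axis) against that in embryos (vertical axis), with bars giving the SD between animals and colours giving the role. Genes with a fetal value above 4 or too few values are not drawn, the dotted line marks equal ratios, and Acsm3 at the lower right and Slc27a2 at the upper left lie farthest from it among genes with an SD under 1.

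Female and male embryos did not differ in any of the 37 genes at the threshold, beside 0.0% of 17212 features that passed with females higher and 0.0116% with females lower. Females had the higher mean for 23 genes (62.2%, beside 49.9% of features) and the lower for 14 (37.8%, beside 50.1%). Only Angptl4 had an unadjusted p under 0.05 (2.7% of genes with females higher, beside 1.54% of features), and 0 genes had one with females lower (0.0%, beside 1.64%). The sexes did not overlap, with females higher, for 6 genes (16.2%, beside 4.74% of features), namely Acad11, Hadh, Acaa1b, Acot12, Bdh1 and Angptl4, and for 0 genes with females lower (0.0%, beside 4.85%). Angptl4 averaged 0.93 ± 0.15 in females and 0.49 ± 0.21 in males, a difference of 0.44 (n = 3 each, adjusted p = 0.998, limma). Hadh averaged 0.20 ± 0.02 in females and -0.04 ± 0.19 in males. All 3 female embryos and 1 of the males were set against the pool labelled female, and the other 2 males against the pool labelled male, so sex and pool label overlap. The same 4 pool animals are named on all of these arrays, and whether the label marks a different pool is not known.

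Other genes of lipid oxidation were examined beside the list, from 102 symbols of which 58 had a probe. None passed in any of the 4 comparisons. In the adults 26 of 58 means lay above 0 (beside 51.8% of all features) and 32 below (beside 48.2%), with a median of -0.05. At an unadjusted p under 0.05, 1 of 58 was higher (beside 3.38% of all features) and 6 were lower (beside 4.37%). Phyh, the peroxisomal hydroxylase of phytanic acid, averaged -0.55 ± 0.31 (n = 6, adjusted p = 0.639, limma), and Nudt7, a peroxisomal coenzyme A hydrolase, averaged -0.61 ± 0.47 (n = 6, adjusted p = 0.639, limma). The 1 higher, Slc16a1, a transporter of ketone bodies and lactate, averaged 0.38 ± 0.31 (n = 6, adjusted p = 0.639, limma). In the embryos 34 of 54 means lay above 0 (beside 51.0% of all features), with a median of 0.07. At an unadjusted p under 0.05, 8 of 54 were higher (beside 10.9% of all features) and 2 lower (beside 9.88%). Lpin1, a phosphatidate phosphatase and coactivator of PPARalpha, averaged 0.40 ± 0.09 (n = 6, adjusted p = 0.0655, limma), and Plin2, a lipid droplet coat protein and PPAR target, averaged 0.23 ± 0.13 (n = 6, adjusted p = 0.136, limma). The 2 lower were Pex26, which anchors the peroxisomal import machinery, at -0.36 ± 0.23 (n = 6, adjusted p = 0.109, limma), and Slc27a1, a fatty acid transport protein, at -0.51 ± 0.47 (n = 6, adjusted p = 0.148, limma). These genes were chosen after their values were seen. Between the ages 23 of 53 differences lay above 0 (beside 47.7% of all features) and 30 below (beside 52.3%). The median difference was -0.17, against -0.02 over all features. At an unadjusted p under 0.05, 5 of 53 were higher in adults (beside 11% of all features) and 12 lower (beside 9.19%). Between the sexes 25 of 54 lay above 0 (beside 49.9%) and 29 below (beside 50.1%).

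Genes with several probes showed how far a single value can be trusted. Of 11 such genes, 8 had probes on both sides of 0 in the adults and 6 in the embryos. Ppara had 5 adult probe means between -0.20 and 0.35, and Bdh1 had 4 between -0.12 and 0.39. Hsd17b4 had probes at -0.41 and 0.23 in the adults, a gap wider than its SD between animals. Crat was steadier in the adults, with 3 probes between 0.10 and 0.16, but its fetal probe medians spanned -0.46 to 0.36.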

How the data were processed

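Total liver RNA was labelled indirectly with Cy3 and Cy5, per the labels' protocols. The values are log2 ratios as deposited by the authors in a table of 20794 rows and 17 arrays. The sources used here give no scanner signals, background correction or normalization, so the number of animals and arrays limits the precision, and the log base was inferred from the range of the values. Probe symbols came from the platform annotation (12771 probes with 1 symbol, 8023 with none), with Entrez IDs looked up in the RefSeq table of GRCm38.p6.

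Fetal values were taken from 11 rows below their probe, which holds up to probe 20000 and leaves 794 fetal rows unnamed. The profiles of same-gene probes correlated best at 11 rows in the embryos (0.0527, against 0.0211 at most elsewhere and 0.0068 as deposited) and at 0 rows in the adults. Arrays with the mutant in Cy3 were read as turned by the authors to the direction of the other arrays. Dye-swap pairs correlated at a median of -0.286, but so did opposite dyes of different animals, at -0.263. The fetal profile correlated at 0.278 with adult Cy5 arrays and at -0.385 with adult Cy3 arrays, and values beyond 10 in size were all positive on Cy5 arrays and all negative on Cy3 arrays.

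Arrays of an animal were averaged and then tested with limma 3.58.1 in R 4.3.3, on features with at least 4 values (for the sexes, at least 2 of each), with Benjamini-Hochberg adjustment over all features. On simulated data 70% (adults, 17039 features) and 90% (embryos, 17242 features) of genes changed by 1 on the log2 scale were recovered. The simulated noise was normal and independent between animals, scaled by the median absolute deviation of each feature, with no dye effect. The real adult arrays had opposite signs on the 2 dyes for 69.5% of features. These shares are therefore no measure of power for the real arrays, and changes below 1 were not simulated. Genes with full values were the 3 highest and the 3 lowest of the adult, fetal and adult minus fetal comparisons, any that passed, and a list by role. The members and lists were chosen with earlier results of these data known. Replicates were separate animals per the labels. Titles of adult Cy5 arrays and fetal arrays share the numbers 1, 3 and 5, whose deviations correlated at 0.0249, 0.0212 and -0.0089, so no pairing was used.

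Alternatives covered the direction of the Cy3 arrays, the dyes used, the fetal row names, the dye profile, centring, missing and very large values, single probes, arrays kept apart with the animal as a random block, a replicate block and leaving out each animal.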

Additional observations from a re-analysis of the deposited data

Results flagged for a closer look

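Of 75 groups of 4 to 6 values of these genes, 10 held an animal whose gap to its nearest neighbour was large for the range of its group. About 1 such group in 20 would be flagged among independent values of normal spread. The groups here share animals and arrays, so the 10 are not read as an excess over that rate. In the adults these were Etfdh in animal 5, at -0.68 beside -0.19 for the nearest, and Cyp4a14 in animal 6, at -0.58 beside 0.20. The Etfdh value of animal 5 is from Cy5 alone and was set against means over both dyes. On Cy5 arrays Etfdh measured 0.23, -0.48, -0.55, -0.42 and -0.28 in animals 1, 2, 3, 4 and 6, so animal 5 is not far from the nearest of them. Embryo 1 stood apart for 3 genes, with Acadvl at -1.08 beside -0.40, Hsd17b4 at -0.44 beside 0.06 and Acaa1a at -0.71 beside -0.02. Embryo 5 stood apart for Slc27a4, at -0.51 beside -0.09, and for Fabp1, at 17.1 beside 1.31. Embryo 6 stood apart for Acsm3, at -2.23 beside -0.86, for Cyp4a14, at -0.78 beside -0.14, and for Bdh1, at 4.04 beside 0.17. The Fabp1 and Bdh1 values go back to probe readings above 10. Acsm3 was flagged also because every adult on Cy5 arrays lay above 0 and every embryo below 0, a difference of 1.08, which the limma test of the difference did not call (n = 6 each, adjusted p = 0.107).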

How the results depend on the processing

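With the Cy3 arrays turned, 1764 adult features passed instead of 0, and 1 gene of the list did, Acaa2 at 0.55. With Cy5 arrays alone 1106 features passed, with Cy3 arrays alone 699, and with the animal as a random block 1, with 0 genes of the list in each. Leaving out each adult left 0 features. The median of the list stayed below 0 in the adults under all 9 alternatives (-0.13 to -0.06) and all 6 leave-outs (-0.18 to -0.07). In the embryos, 4986 features passed with the adult dye profile subtracted, 61 with a value in every animal, 83 without values beyond 10 and 88 for single probes, instead of 26, and 2 to 5 passed when an embryo was left out. The first of these called 6 genes of the list (Acaa2, Acads, Cpt2, Crat, Ech1 and Etfa), beside the 4986 features it called. The main fit tested 37 genes of the list and 17242 features, so the 6 are not read as a result about the list. Leaving out values beyond 10 called 1 (Angptl4). As deposited, the fetal row names gave a median of 0.073 for the list. Between the ages, 9 features passed with animal means over both dyes, 1579 with fetal rows as deposited, 36 with a value in every animal and 42 without values beyond 10, instead of 23. With the shared title numbers as a replicate block 2 features passed and 0 genes of the list. Leave-outs gave 4 to 1251 features, the highest without adult animal 1 and the next, 78, without embryo 5. Of the list, 2 passed with rows as deposited (Acsm3 and Cat, beside 1579 features) and 0 to 1 in the leave-outs (Slc27a2, without adult animal 1, beside 1251 features). Between the sexes, 25 features passed among embryos whose pool is labelled female, and 0 with a value in every animal or without values beyond 10, instead of 2, and 0 to 4 in the leave-outs. No cause was tested for any of these shifts.

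Of 447 values of named genes under an alternative, 37 had the other sign. With the Cy3 arrays turned, the adult values were 0.039 for Acaa1a, -0.20 for Slc27a5, -0.19 for Pex11a, -0.0010 for Acsm3 and 0.031 for Acadm. On Cy3 arrays alone they were 0.0058 for Hadha, -0.066 for Cyp4a14, -0.23 for Bdh1 and -0.29 for Ppara. Single adult probes gave 0.033 for Acadm, -0.12 and -0.079 for Bdh1, -0.13 and -0.20 for Ppara and 0.0052 for Ppargc1a. Adult leave-outs spanned -0.020 to 0.11 for Ppara and -0.20 to 0.027 for Ppargc1a. With fetal rows as deposited the values were 0.041 for Acadvl, 0.37 for Acads, 0.36 for Hadha, 0.079 for Cyp4a14, -0.030 for Bdh1, and 0.22 for Acot8 between the ages. With the dye profile subtracted, fetal Acadm was -0.036 and Hadha 0.13. Without values beyond 10, fetal Bdh1 was -0.046. Single fetal probes gave -0.023 for Acadm, -0.12 and -0.20 for Bdh1, -0.15 for Ppara and -0.13 for Ppargc1a. Fetal leave-outs spanned -0.037 to 0.090 for Acadm, -0.099 to 0.00040 for Hadha, -0.088 to 0.12 for Cyp4a14 and -0.056 to 0.81 for Bdh1. With animal means over both dyes, the adult minus fetal value of Etfa was -0.35. The cause was not tested. Signal over background is not in the values, so no limit from dim spots can be given.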
